A study of Mus musculus with 36 samples.

Results

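The comparison of G418 with puromycin sets mRNA half-lives in mouse embryonic stem cells (mESCs) under a drug that makes ribosomes misread codons against half-lives under a drug that releases unfinished chains. For each mRNA, the log2 half-life in puromycin was subtracted from the log2 half-life in G418, so that a negative value means a shorter half-life in G418. All 10325 mRNAs of the 10325 in the series were used. Weight was placed on the 3247 mRNAs (31.4%) with 1000 average reads or more, and the other 7078 are given beside them.

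E14Tg2a mESCs, a line of the 129/Ola strain grown in 2i medium, received 100 µM 4-thiouracil for 24 h, with fresh medium every 8 h, and were then moved to medium with 10 mM uridine. This chase medium held 0.1 µg/mL G418, 0.1 µg/mL puromycin or, in control, no antibiotic. Cells were harvested at 0, 1, 2, 4, 8 and 24 h of the chase in 2 replicates each, and the labels list 12 libraries per condition and 36 in all. The legend of the half-life table counts fewer samples, so which libraries entered a half-life is not certain. The doses of both drugs were equal by mass, and how strongly each slowed protein synthesis at that dose was not analysed here.

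In SLAM-Seq, alkylated 4-thiouracil is read as C in place of U. Half-lives come from the fall in the fraction of converted reads over the chase. That fraction falls as labelled mRNA decays and as unlabelled mRNA is made, and the part of each was not tested. The authors combined the replicates and time points into 1 half-life in minutes per mRNA and condition. No difference given here therefore has a replicate check, and mRNAs are not replicates of a treatment, so shares, medians and spreads over mRNAs are descriptions. The average read numbers, read as means over the 36 libraries, add up to 14634046 reads per library, of which mRNAs with 1000 reads or more held 77.9%. Each mRNA here is a single transcript identifier, and whether a read was counted for several of them is not known. How reads were divided among the libraries is not known.

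G418 (geneticin) is an aminoglycoside that binds the decoding centre of the ribosome and lets poorly matched tRNAs pass, so that ribosomes continue along the mRNA and make proteins with wrong amino acids. Puromycin resembles the end of a charged tRNA, is joined to the growing peptide and frees it, which ends elongation before the stop codon. Decay of cytoplasmic mRNAs is coupled to translation: shortening of the poly(A) tail and removal of the cap respond to how ribosomes move along the coding sequence.

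Half-lives were shorter in G418 than in puromycin for most well-read mRNAs. Among mRNAs with 1000 reads or more, the median half-life was 179 min in G418 and 197 min in puromycin, with 189 min in control. On the log2 scale the median ratio stood at -0.17, a change of -11.0%. A shorter half-life in G418 was listed for 2104 mRNAs (64.8%) and a longer one for 1143. The quartiles of the ratio were -0.50 and 0.13, the 5th and 95th percentiles were -1.12 and 0.70, and the SD over mRNAs was 0.60. The spread of single mRNAs was thus several times the median shift. Among the mRNAs with fewer reads, the median ratio was -0.12 with an SD of 1.01, and 55.8% had the shorter half-life in G418.

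**Figure D1:**
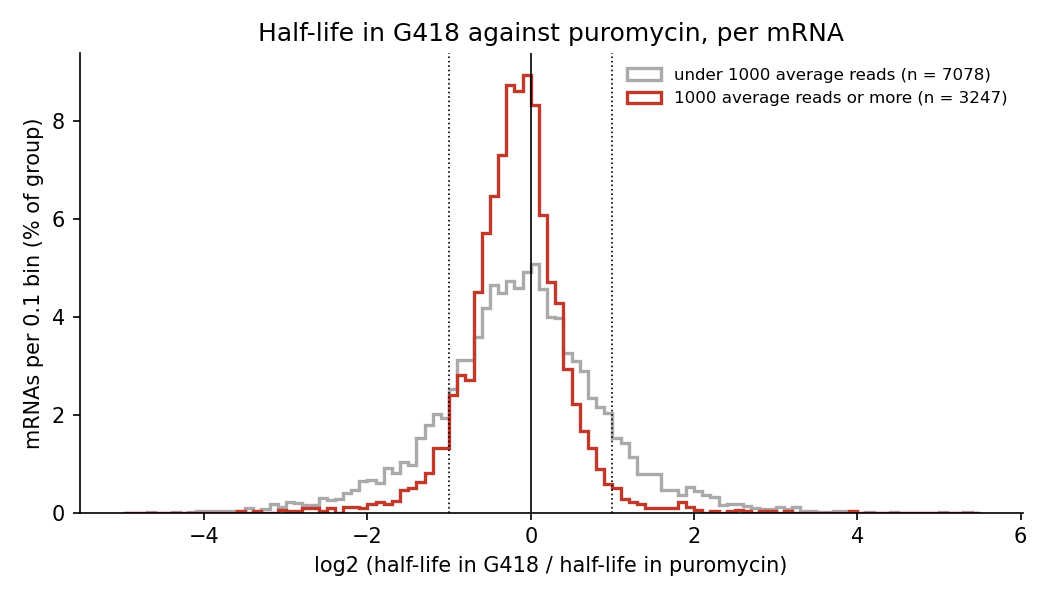
Distribution of the log2 ratio of half-lives, G418 over puromycin, as the percent of mRNAs in each bin of 0.1, for 3247 mRNAs with 1000 average reads or more and 7078 with fewer; dotted lines mark 2-fold. The well-read mRNAs form the narrower curve (SD 0.60 against 1.01), with its median at -0.17.

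The distance between the drugs was not the same along the distribution of half-lives. At the 5th percentile of the well-read mRNAs, half-lives were 87.6 min in G418 and 91.0 min in puromycin, a difference of -3.66% for G418. At the 25th, 50th and 75th percentiles the difference was -7.26%, -9.33% and -13.7%. At the 95th percentile, half-lives were 422 min in G418 and 598 min in puromycin, a difference of -29.5%. Of these 5 percentiles, the drugs lay furthest apart at the highest. The SD of log2 half-lives over these mRNAs was 0.70 in G418, 0.82 in puromycin and 0.81 in control.

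A factor common to all mRNAs would move each half-life in G418 by the same amount on the log2 scale. The difference between the median log2 half-lives of both drugs was -0.14 in the well-read mRNAs. When each drug was centred on its median, 52.0% of these mRNAs had the shorter half-life in G418, in place of 64.8%. The median ratio was then -0.03. The medians of the mRNAs under 1000 reads differed by -0.10, which leaves a median ratio of -0.02 when they are centred on their own medians. Where centred values are given beside those as deposited, the centre is that of the well-read mRNAs, except where stated.

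The ratio moved with the stability of the mRNA in untreated cells. The 3247 well-read mRNAs were ranked by half-life in control, a value that does not enter the ratio, and divided into 10 deciles of 324 or 325 mRNAs. In the shortest-lived decile, median half-lives were 106 min in G418 and 113 min in puromycin, where control had 87.6 min. In the longest-lived decile they were 332 min in G418 and 442 min in puromycin, where control had 543 min. Medians in both drugs lay nearer to the centre than those in control at each end. The ranking used control, and half-lives in G418 were less spread than those in control without any ranking; the part of either was not tested. Half-lives in puromycin were more widely spread than those in G418, and the part of this unequal spread in the distance between the drugs at each end was not tested. The gap between their medians widened from 6.94 min in the shortest-lived decile to 110.0 min in the longest-lived.

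From the shortest-lived to the longest-lived decile, the median log2 ratio was -0.05, -0.12, -0.06, -0.11, -0.11, -0.15, -0.21, -0.25, -0.31 and -0.41. It varied without a steady order over the first 5 deciles and became more negative at each step from the fifth on. The difference between the last and the first decile was -0.37. Only a factor that multiplies all half-lives alike cancels in this difference. The median change in half-life, G418 against puromycin, was -3.16% in the shortest-lived decile and -24.9% in the longest-lived. A shorter half-life in G418 was listed for 56.2% of mRNAs in the first decile and for 72.9% in the last.

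Relative to the common shift of -0.14, the medians of the first 5 deciles were above 0, with 0.09 in the first, and those of the last 5 were below 0, with -0.27 in the last. Centred in this way, 42.9% of the shortest-lived decile and 67.4% of the longest-lived had the shorter half-life in G418. Centring on these same mRNAs places about as many above 0 as below, so opposite signs at the ends add nothing to the difference between the deciles.

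**Figure D2:**
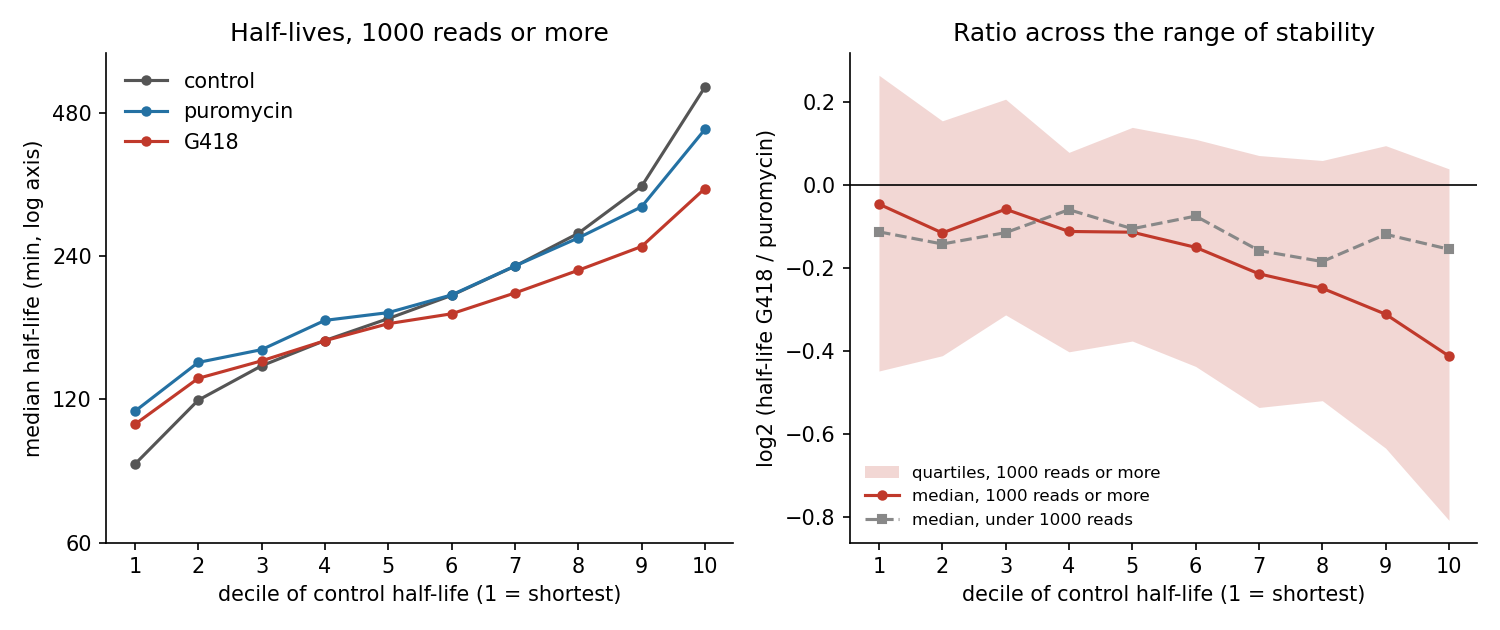
Left, median half-life (min, log axis) in control, puromycin and G418 for mRNAs with 1000 reads or more in deciles of control half-life; right, median and quartiles of the log2 ratio of G418 over puromycin in the same deciles, with the medians of mRNAs under 1000 reads in deciles of their own. The well-read median goes from -0.05 to -0.41, which is 0.09 to -0.27 once the shift of -0.14 is taken off, and from -0.11 to -0.16 under 1000 reads.

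Over the 3247 well-read mRNAs, the correlation of the log2 ratio with the log2 control half-life was -0.16 (Pearson) and -0.17 (Spearman). These are across mRNAs, which are not independent replicates and which share the libraries of each condition. Stability in control therefore went with a small share of the variation between single mRNAs. A doubling of the control half-life went with a rise in log2 half-life of 0.59 in G418 and 0.72 in puromycin, as slopes of straight lines over the same mRNAs. Between the drugs, half-lives on the log2 scale correlated at 0.70 (Pearson) and 0.72 (Spearman).

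The same half-lives can be written as decay rate constants, the natural log of 2 divided by the half-life. In the shortest-lived decile the median rate constant was 0.391 per h in G418 and 0.367 per h in puromycin, and in the longest-lived it was 0.125 per h and 0.0940 per h. The median of the difference within each mRNA, G418 minus puromycin, was 0.0153 per h in the first decile and 0.0292 per h in the last. Across the 10 deciles it ranged from 0.0117 per h, in the third, to 0.0327 per h, in the ninth. An equal addition to the rate constant of every mRNA would move the log2 ratio more in long-lived than in short-lived mRNAs. Its part in the course of the ratio was not tested. With the half-lives of each drug centred, the median difference was -0.0238 per h in the first decile and 0.0190 per h in the last, below 0 in the first 5 deciles and above 0 in the last 5. As with the medians of the ratio, opposite signs at the ends follow from centring on these mRNAs.

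Read number rose with stability, and its part in the trend was examined by holding it within limits. The median read number was 1536 in the shortest-lived decile and 2663 in the longest-lived. Over the well-read mRNAs, log2 reads and log2 control half-life had a Pearson correlation of 0.26. The mRNAs were therefore divided both by reads and by control half-life, into short-lived (up to 157 min), intermediate (157 to 234 min) and long-lived (234 min or more) groups of equal size.

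Within each range of reads, the long-lived mRNAs had the lowest median ratio. From 1000 to under 2000 reads, the median log2 ratio was -0.10 in 680 short-lived, -0.14 in 628 intermediate and -0.28 in 505 long-lived mRNAs. From 2000 to under 5000 reads, it was -0.09 in 328, -0.18 in 339 and -0.25 in 363 mRNAs. At 5000 reads or more, it was -0.06 in 74, -0.11 in 115 and -0.40 in 215 mRNAs. Medians of the short-lived mRNAs went only from -0.10 to -0.06 over these ranges of reads, and the long-lived mRNAs with the most reads stood furthest from 0. In this last group, median half-lives were 305 min in G418 and 418.2 min in puromycin, and 85.6% of the mRNAs had the shorter half-life in G418. After centring it was 78.1%, against 36.5% for the short-lived mRNAs with as many reads.

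Below 1000 reads the course along stability was weaker and depended on the read range. In deciles of control half-life of these 7078 mRNAs, chosen after the data had been seen, the median log2 ratio was -0.11 in the shortest-lived and -0.16 in the longest-lived, a difference of -0.042. The highest decile median was -0.06 and the lowest -0.18. In deciles of their own, the 2748 mRNAs from 500 to under 1000 reads had a difference of -0.21 and the 4330 under 500 reads one of 0.068, while all 5995 mRNAs with 500 reads or more had one of -0.33. The course therefore faded over the lower read ranges and was not lost at 1000 reads. Over all 7078 mRNAs under 1000 reads, the Spearman correlation of the ratio with control half-life was -0.0052. Half-lives of these mRNAs in the drugs also followed control less closely, with slopes of 0.26 in both G418 and puromycin. The part of this looser relation in the weaker course was not tested.

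By read number alone, the median ratio fell as reads rose, and the spread narrowed up to the bin below 10000 reads and was wider again in the highest. Under 200 reads, 969 mRNAs had a median ratio of -0.10 and an SD of 1.29. In the 1813 mRNAs from 1000 to under 2000 reads the values were -0.14 and 0.64, and in the 1030 mRNAs from 2000 to under 5000 reads they were -0.17 and 0.53. The 243 mRNAs from 5000 to under 10000 reads had a median of -0.23 and an SD of 0.50, and the 161 with 10000 reads or more had a median of -0.30 and an SD of 0.56. Shorter half-lives in G418 made up 52.7% of mRNAs in the lowest of the 7 bins and 83.9% in the highest, or 48.5% and 67.7% after centring.

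**Figure D3:**
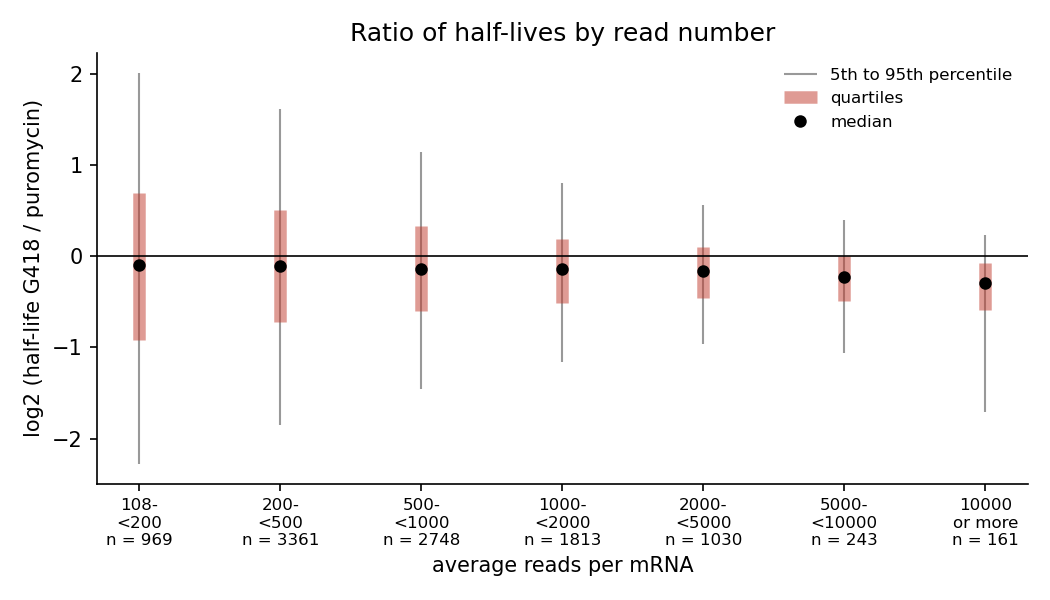
Log2 ratio of half-lives, G418 over puromycin, in 7 bins of average reads per mRNA: points are medians, thick bars quartiles and thin lines the 5th to 95th percentiles over the mRNAs of each bin. The distance between the quartiles falls from 1.61 in the lowest bin to 0.50 at 5000 to under 10000 reads and is 0.51 in the highest, and the median goes from -0.10 to -0.30; relative to the shift of -0.14 the lowest bin lies at 0.05 and the highest at -0.16.

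The 161 most abundant mRNAs were mostly long-lived. By the same limits of control half-life, 103 of them were long-lived, 35 intermediate and 23 short-lived. In the long-lived ones, the median half-life with G418 was 339 min and that with puromycin 473 min, on either side of the control value of 452 min, and the median log2 ratio was -0.43. Of these 103 mRNAs, 93 had the shorter half-life in G418, as did 29 of the 35 intermediate and 13 of the 23 short-lived mRNAs. After centring the counts were 85, 18 and 6. The median ratio of the short-lived group was -0.02. At the top of the read range, abundance and stability therefore went together, and the lowest median was that of the stable mRNAs.

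All of the 10 mRNAs with the most reads had the shorter half-life in G418, before and after centring. Their read numbers ranged from 62573 to 289411, and 6 of them were in the longest-lived decile. Their median half-life was 333 min with G418 and 759 min with puromycin, and 542 min without either. The lowest log2 ratio was -1.72, the median -0.77 and the highest -0.19, and 4 of the 10 were at least 2-fold shorter in G418. Half-lives in puromycin reached 2045 min, beyond the last time point of 24 h, and such values occurred among these 4. No limit on half-lives was applied to these mRNAs. The control half-life was between those of the drugs for 9 of the 10. The files do not pair transcript identifiers with gene names, so what these mRNAs encode is not given here.

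The tails of the ratio were counted at fixed fold limits. Over all 10325 mRNAs, half-lives at least 2-fold shorter in G418 were listed for 13.1% and at least 2-fold longer for 8.1%. Among the 3247 well-read mRNAs, 217 (6.68%) were at least 2-fold shorter in G418 and 72 (2.22%) at least 2-fold longer, a ratio of 3.01. Both tails thus held a smaller share than in the whole series, and the fall was steeper for the longer tail. After centring, the counts were 153 and 103, a ratio of 1.49. Under 1000 reads they were 1133 and 764, and 1006 and 904 when these mRNAs were centred on their own medians.

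At other limits the shorter tail was the larger too. At a log2 difference of 0.32, where 39.4% of all mRNAs were shorter and 25.2% longer, the well-read mRNAs numbered 1194 and 496. At 1.5-fold, with 26.2% and 16.4% of all mRNAs, they numbered 650 and 226. At 3-fold, with 5.24% and 3.31% of all mRNAs, they numbered 56 and 28, and at 4-fold, with 2.85% and 1.83%, 27 and 11. The ratio of shorter to longer was 2.41 at a log2 difference of 0.32, 2.88 at 1.5-fold, 2.00 at 3-fold and 2.45 at 4-fold. After centring it was between 1.23, at a log2 difference of 0.32, and 1.49, at 2-fold.

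In the well-read mRNAs, the shorter 2-fold tail was unevenly placed along stability. Of the 217 mRNAs at least 2-fold shorter in G418, 58 (26.7%) were in the longest-lived decile and 22 in the shortest-lived. Of the 72 at least 2-fold longer, 8 (11.1%) were in the longest-lived decile, 11 in the one before it, 11 in the second and 13 in the shortest-lived, with 3 to 8 in each of the others. The SD of the ratio was 0.66 in the shortest-lived and 0.77 in the longest-lived decile, against 0.47 in the fourth, the lowest. In the 5 short-lived deciles together the tails held 67 and 43 mRNAs, a ratio of 1.56, and in the 5 long-lived deciles 150 and 29, a ratio of 5.17. Centred, the short-lived deciles held 42 shorter and 59 longer, and the long-lived ones 111 and 44. Under 1000 reads the tails were placed more evenly. In deciles of these mRNAs, the 5 short-lived ones held 553 and 376, a ratio of 1.47, and the 5 long-lived ones 580 and 388, a ratio of 1.49, with 112 and 104 in the longest-lived. Over all 10325 mRNAs the ratio was 1.48 in the short-lived and 1.76 in the long-lived deciles.

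**Figure D4:**
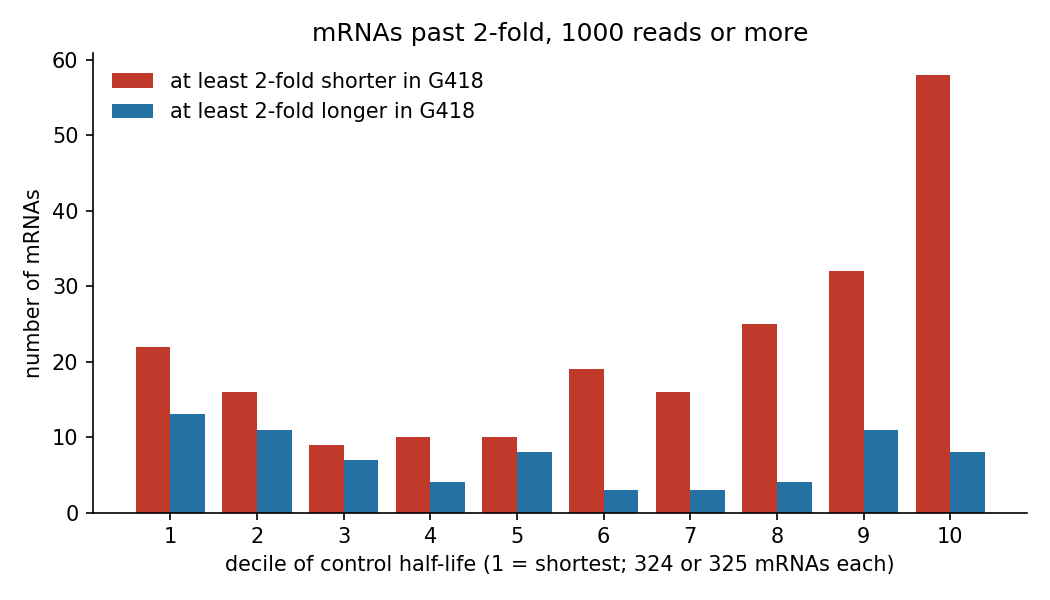
Number of mRNAs with 1000 reads or more that were at least 2-fold shorter or at least 2-fold longer in G418 than in puromycin, by decile of control half-life. In the longest-lived decile 58 were shorter and 8 longer, 45 and 13 after centring; in the shortest-lived 22 were shorter and 13 longer, which turned to 14 and 20.

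The half-lives of the mRNAs in each tail are given as a description. For the 217 mRNAs of the shorter tail, half-lives had a median of 191 min with G418, against 473 min with puromycin and 257 min in control. Each was compared with the median of its own decile of control half-life in the same drug. The median deviation was -0.22 in log2 for G418 and 0.90 for puromycin, and puromycin was the further from its decile's median in 149 of the 217. For the 72 mRNAs of the longer tail, where the medians were 351 min with G418, 117 min with puromycin and 170.2 min in control, the deviations were 0.98 and -0.61, and G418 was the further in 40. These values follow in part from the rule that chose the mRNAs, and nothing is read from them.

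The control half-life was between those of the drugs for 148 (68.2%) of the 217, the shortest of the 3 for 44 and the longest for 25. For the 72 in the opposite tail it was between for 43 (59.7%), the shortest for 18 and the longest for 11. Half-lives beyond the last time point of 24 h were listed in puromycin for 21 of the 217, and in G418 for 3 of the 72. Over all 3247 well-read mRNAs, such values were listed for 22 in puromycin and 5 in G418. With all 3 half-lives held from 60 min to 24 h, the tails had 183 and 55 of 3135 mRNAs. Without this limit, the tails held fewer reads than the rest. Their medians were 1602 reads in the shorter and 1234 in the longer tail, against 1839 for the mRNAs within 2-fold. Of the 161 mRNAs with 10000 reads or more, 20 (12.4%) were in the shorter tail and 0 in the longer, and 17 and 2 after centring. As deposited, the shorter tail held 13.1% of all 10325 mRNAs and 6.68% of the well-read ones, and the longer tail 8.1% and 2.22%.

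Counted against the time points of the chase, the drugs differed in the number of very stable mRNAs. Of the well-read mRNAs, half-lives of 480 min or more, the 8 h time point, were listed for 111 in G418 and for 239 in puromycin. Of the 239 in puromycin, 65 (27.2%) reached 480 min in G418 as well, 146 were from 240 to under 480 min, and 28 (11.7%) were below 240 min. Of the 111 in G418, the same 65 (58.6%) reached 480 min in puromycin, 32 were from 240 to under 480 min, and 14 (12.6%) were below 240 min. Each group was picked by its value in one condition, so the shares are given from both sides. In the 65 mRNAs at 480 min or more in both, the median half-life was 643 min in G418 and 781 min in puromycin. Of these 65, 42 were shorter in G418, a share close to the 64.8% over all well-read mRNAs.

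At the short end the drugs lay closer. Half-lives under 120 min were listed for 541 well-read mRNAs in G418 and for 449 in puromycin, and 284 were under 120 min in both, which is 52.5% of the first group and 63.3% of the second. Of the 541, 25 had half-lives of 240 min or more in puromycin, and of the 449, 13 had such half-lives in G418. The median half-life in puromycin of the 541 was 118 min, and the median in G418 of the 449 was 110.5 min.

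**Figure D5:**
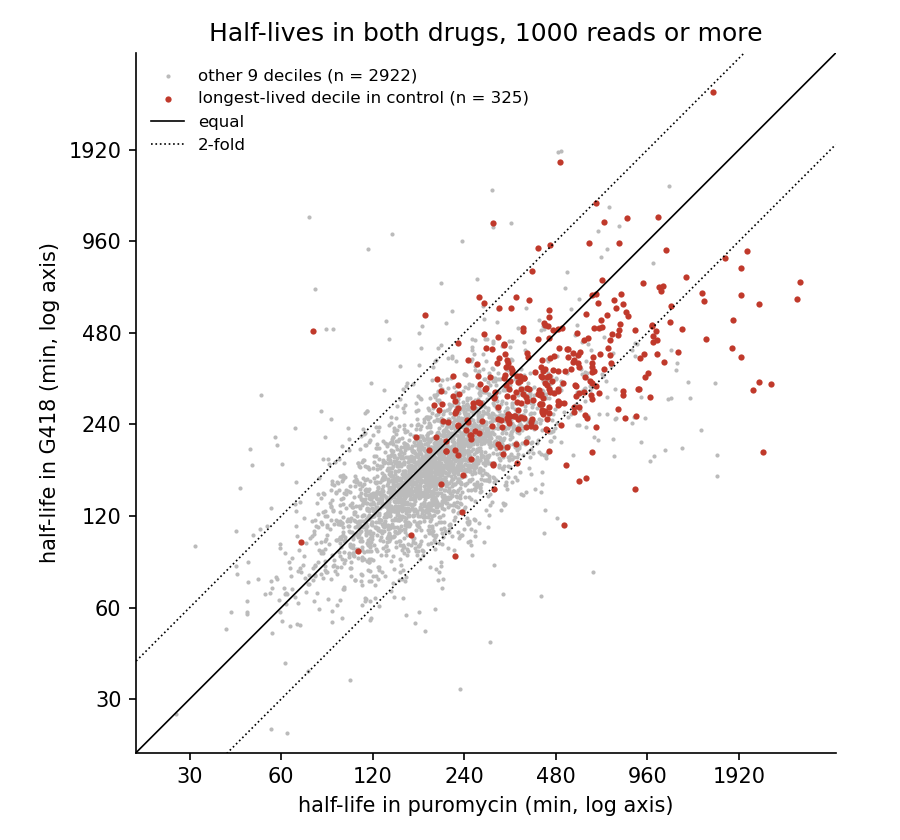
Half-life in G418 against half-life in puromycin (min, log axes) for the 3247 mRNAs with 1000 reads or more, with the longest-lived decile in control (n = 325) in red; the solid line marks equal half-lives and dotted lines 2-fold. Of the red points, 237 of 325 had the shorter half-life in G418, and 58 lie beyond the lower 2-fold line against 8 beyond the upper.

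Single mRNAs were chosen among the 3135 well-read mRNAs whose 3 half-lives were each at least 60 min and at most 24 h, as the 10 with the lowest and the 10 with the highest ratio. The 10 lowest had log2 ratios from -3.02 to -2.18, with half-lives from 65.6 to 294 min in G418 and from 323 to 1330 min in puromycin. The lowest belonged to uc012edr.1, at 1989 reads, where G418 had 78.2 min, puromycin 635 min and control 107.6 min. Its control and G418 values were near each other, and puromycin stood apart. The next was uc033jgi.1, at 1737 reads, where G418 had 65.6 min, puromycin 429 min and control 236 min, so that all 3 conditions were spread out. Control lay between the drugs for 8 of these 10, and 7 of the 10 were in the 2 longest-lived deciles, as were 5 of the 10 highest.

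The 10 highest had log2 ratios from 1.89 to 3.97, with half-lives from 488 to 1421 min in G418 and from 73.9 to 298 min in puromycin. The highest was uc057atr.2, at 3155 reads, where G418 had 1154 min, puromycin 73.9 min and control 175 min. The next was uc007unf.2, at 1121 reads, where G418 had 907 min, puromycin 116 min and control 106 min. In the second of these, control and puromycin were close and G418 stood apart. Control lay between the drugs for 4 of the 10, was the shortest for 4 and the longest for 2. Read numbers of these 10 ranged from 1024 to 3169, and those of the 10 lowest from 1191 to 4427.

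The values on either side of the limit of 1000 reads are given as a description. The 5 mRNAs just above it, with 1000 to 1001 reads, had log2 ratios from -1.27 to 0.60 with a median of -0.04. The 5 just below it, with 999 to 999.5 reads, had ratios from -0.84 to 0.75 with a median of -0.05.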

How the data were processed

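The authors aligned paired-end SLAM-Seq reads to the mouse transcriptome with Bowtie2 (version not given in the sources used here); the submitters' processing notes list mm10 and GRCm39. Custom scripts took the fraction of converted reads per mRNA, and an exponential decay was fitted. For every mRNA the deposited table gives a half-life (min) in each condition and an average read count, a mean and not a whole count; each average multiplied by 36 was whole within 0.01 for 100% of mRNAs. How replicates were combined, and any filter on reads or on the quality of a fit, are not stated. The deposited half-lives were used unscaled.

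Log2 ratios, ranks, bins, tails and centring were computed with python 3.11.15, numpy 2.4.6, pandas 2.3.3 and scipy 1.17.1 and plotted with matplotlib 3.10.9, after tests on simulated data. No test between conditions was made. Named mRNAs were the 10 lowest, the 10 highest and the 10 with most reads, with at most 2 identifiers printed per direction. Gene lists were not used, because no identifier could be paired with a name. The members and lists were chosen with earlier results of these data known.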

Additional observations from a re-analysis of the deposited data

How the results depend on the processing

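Of 59 alternatives computed for 6 results, 30 kept the value inside its limits, 28 moved it and 1 changed its sign. The 30 include, for each of the 6 results, the use of repeated rows once, which removed no mRNA and so could change no value. Of the 24 for the median ratio and the difference between deciles, which can take either sign, the exception was the decile difference under 500 reads, at 0.068. Limits were the 95% interval over mRNAs for medians and shares, and 1.5 times for counts and the SD; mRNAs are not replicates, so these limits only sort the alternatives.

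The median ratio of -0.17 was -0.19 with a minimum of 2000 reads, -0.26 with 5000, -0.14 with no minimum and -0.027 after centring. The share of mRNAs shorter in G418, 64.8%, was 61.7% with a minimum of 500 reads, 69.5% with 2000, 78.0% with 5000, 58.6% with no minimum and 52.0% after centring. The difference between the longest-lived and shortest-lived deciles, -0.37, was -0.67 with a minimum of 5000 reads, -0.33 with 500, -0.13 with no minimum and -0.042 under 1000 reads. It was -0.57 when ranked by the mean of both drugs, which shares values with the ratio, and -0.48 when ranked by the mean of all 3 conditions. Centring of the median ratio and the alternatives by upper limit of reads were chosen after seeing the data: from 500 to under 1000 reads the difference was -0.21, from 1000 to under 2000 it was -0.28, and from 1000 to under 10000 it was -0.34.

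Of the 3247 mRNAs, 217 were at least 2-fold shorter and 72 at least 2-fold longer. With a minimum of 500 reads the counts were 542 and 258 of 5995 mRNAs, and with 2000 reads 74 and 12 of 1434. With 5000 reads they were 34 and 2 of 404, and with no minimum 1350 and 836 of 10325. Among the 3247, they were 650 and 226 at 1.5-fold and 56 and 28 at 3-fold, which follows from the fold limit. With other minimums of reads, the shares of the tails and the ratio of shorter to longer changed as well. The SD of 0.60 was 0.90 with no minimum. Except for the fold limits, the cause of the changes was not tested. None of the 3247 well-read mRNAs repeated another in all 3 half-lives and the reads, so using repeats once changed no value. This check cannot see transcripts of the same gene that share reads. How many mRNAs come from the same gene is not known, because identifiers could not be paired with names.

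No paired analysis was possible because replicates were already combined into 1 half-life per mRNA and condition, and results without single replicates were likewise not computed. The precision of single half-lives is unknown.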
